A study of Homo sapiens with 4 samples.

Results

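The BCL2 family decides whether the outer membrane of the mitochondria stays closed. Here 10 of its genes were followed through RNA sequencing libraries of 2 human colorectal cancer cell lines with and without an siRNA against TMEM161A. The genes were taken by name from the 60658 gene identifiers of the deposited tables, and each name matched 1 identifier. There were 3 survival members (BCL2, BCL2L1, MCL1) and 7 death members. Of the latter, 2 form pores (BAK1, BOK) and 5 are BH3-only genes (BID, BIK, BMF, BAD, BCL2L11). BAX, BBC3 and PMAIP1, which belong to the same family, were not among the chosen genes and appear only for their levels.

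HT29 and LIM1215 are established lines from colorectal tumours. Each line gave 1 library from cells with a negative control siRNA (NC) and 1 from cells with the siRNA named si2 against TMEM161A, a gene for a transmembrane protein. An siRNA is a short RNA duplex that directs the degradation of a matching mRNA. With 1 siRNA sequence, effects of less TMEM161A cannot be told apart from effects of the same siRNA on other mRNAs. With 4 libraries in 4 groups no group had a replicate, so no value carries an error between cultures and no comparison within a line could be tested. One test was made of si2 against NC across the lines, with the line as a block and 1 residual degree of freedom.

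Survival members hold the pore formers in check by binding them. BAK1 and BOK can assemble into pores that let cytochrome c out of the mitochondria, after which caspases are activated and the cell dies by apoptosis. BH3-only proteins report damage or lost signals: they occupy the groove of survival proteins through a short helix, the BH3 domain, and some of them also switch on the pore formers directly. In the gut epithelium BCL2L1 and MCL1 are the survival members known for keeping cells alive.

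The stretch of coding sequence for the BH3 core is shown first, because this helix is common to all 10 proteins and is what death members place into the groove of survival members. A core was searched in the protein of each canonical transcript (GENCODE release 44, GRCh38) as a leucine, any 2 residues, a hydrophobic residue, a small residue, an aspartate, any residue and a hydrophobic residue. Each of the 10 proteins held exactly 1 such match. The 48 bases below, 5′ to 3′ on the coding strand, run from 4 codons before the core to 4 codons after it. Each lies in coding exons. Capitals mark the codons of the leucine and of the aspartate.
BCL2, chr18:63318343-63318390, minus strand: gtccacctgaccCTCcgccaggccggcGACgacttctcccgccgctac
BCL2L1, chr20:31721916-31721963, minus strand: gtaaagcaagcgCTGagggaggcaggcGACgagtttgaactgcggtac
MCL1, chr1:150578859-150578906, minus strand: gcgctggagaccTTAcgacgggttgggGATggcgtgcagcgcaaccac
BAK1, chr6:33575381-33575428, minus strand: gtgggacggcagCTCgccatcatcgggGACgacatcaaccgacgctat
BOK, chr2:241559679-241562370, plus strand, across an intron: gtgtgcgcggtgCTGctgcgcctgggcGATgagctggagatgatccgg
BID, chr22:17739409-17739456, minus strand: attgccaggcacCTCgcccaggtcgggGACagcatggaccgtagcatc
BIK, chr22:43127704-43127751, plus strand: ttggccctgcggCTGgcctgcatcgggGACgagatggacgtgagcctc
BMF, chr15:40104189-40104236, minus strand: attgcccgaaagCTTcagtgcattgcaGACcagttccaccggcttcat
BAD, chr11:64271616-64271663, minus strand: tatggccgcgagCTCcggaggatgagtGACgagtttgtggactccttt
BCL2L11, chr2:111150091-111150138, plus strand: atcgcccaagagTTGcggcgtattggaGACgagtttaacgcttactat

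Between any 2 members 14 to 30 of these 48 bases were identical, with a median of 21 over 45 pairs. BIK shared 30 bases with BAK1 and 30 with BID, and MCL1 shared 14 with BAD. The aspartate codon was GAC in 8 members and GAT in MCL1 and BOK. In the median pair more bases differed than were alike, and 4 bases were the same in all 10 members.

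The unit throughout is FPKM, fragments per kilobase of gene, scaled to the mapped fragments of the library, as deposited by the authors. FPKM is per length, so levels of different genes in 1 library can be set side by side. By estimate, 18.1 to 21.5 fragments per kilobase made up 1 FPKM, depending on the library. From these estimates each ratio was given a 95% counting interval (exact Clopper-Pearson), which covers the error of counting fragments and not the variation between cultures. TMEM161A itself was at 42.6 in the HT29 control and 4.64 in the HT29 knockdown library, and at 39.1 and 7.61 in LIM1215, in the direction of the labels. Of 11 colon epithelium markers, all were at an FPKM of at least 1 in both LIM1215 libraries and 6 in both HT29 libraries. CDX1 was listed at 0 in both HT29 libraries, and CDH17 and VIL1 in the HT29 knockdown library alone. The leukocyte markers PTPRC and CD3E were listed at 0 in all 4 libraries, and the fibroblast marker COL1A1 reached 17.6 in the HT29 control. The 11 epithelial markers summed to 3140 and 3590 in HT29 and to 8330 and 10200 in LIM1215 (NC and si2). The sums were 0.541 to 2.27 over 5 leukocyte, 6.03 to 18.2 over 5 fibroblast and 0.2 to 0.601 over 3 endothelial markers. Their part in the differences between the libraries was not tested.

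BCL2L1, which codes for BCL-XL, was the most abundant of the 10 genes in every library. Its FPKM was 143 (NC) and 189 (si2) in HT29 cells, and 118 (NC) and 139 (si2) in LIM1215 cells. Both knockdown libraries lay above the control of their line, and both HT29 libraries lay above both LIM1215 libraries. The knockdown to control ratio was 1.32 (1.28 to 1.36 by counting) for HT29 and 1.18 (1.14 to 1.22) for LIM1215.

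MCL1, a short-lived survival protein, was at 52.9 (NC) and 84.9 (si2) in HT29 cells, and 80.0 (NC) and 115 (si2) in LIM1215 cells. Again both knockdown libraries were the higher ones of their line. The ratio was 1.61 in HT29 (1.54 to 1.67) and 1.44 in LIM1215 (1.39 to 1.49), larger than that of BCL2L1 in each line. BCL2 itself, the founding member, was low. It was at 0.924 (NC) and 0.900 (si2) in HT29 cells, and 0.760 (NC) and 0.513 (si2) in LIM1215 cells, from an estimated 69 to 132 fragments. BCL2L1 stood 155 times above BCL2 in the control library of either line.

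The balance of BCL2L1 and MCL1 can be read within a library, where scaling does not enter. There were 2.71 units of BCL2L1 per unit of MCL1 in the HT29 control (2.61 to 2.81) and 2.22 in the HT29 knockdown library (2.16 to 2.29). In LIM1215 the figures were 1.47 (1.42 to 1.53) in the control and 1.21 (1.17 to 1.24) in the knockdown library. The ratio was lower in the knockdown library of each line, and lower in LIM1215 than in HT29, with no overlap of the counting intervals. MCL1 made up 26.8% of the summed survival FPKM in HT29 cells with NC and 45.2% in LIM1215 cells with si2, the lowest and the highest share of the 4.

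**Figure D1:**
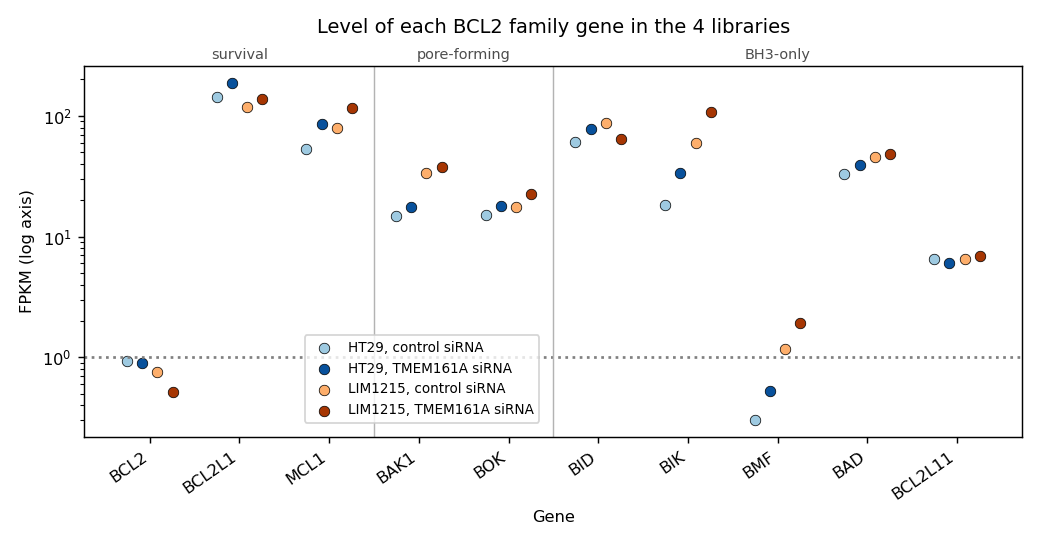
FPKM (log axis) of the 10 genes, 1 point per library and 4 points per gene, ordered HT29 control, HT29 knockdown, LIM1215 control and LIM1215 knockdown. BCL2L1 is highest in all libraries, BCL2 and BMF lie near or under the dotted line at 1, and BIK spans 18.4 to 109.

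Of the pore formers, BAK1 was at 14.7 (NC) and 17.6 (si2) in HT29 cells, and 33.4 (NC) and 37.7 (si2) in LIM1215 cells. Its levels separated by line, with a smaller step between siRNAs, of 1.2 in HT29 (1.07 to 1.33) and 1.13 in LIM1215 (1.05 to 1.22). BOK, a pore former that survival proteins hold back poorly, was at 15.0 and 17.9 in the HT29 control and knockdown, and at 17.6 and 22.4 in the LIM1215 control and knockdown libraries. The BOK ratios were 1.2 (1.09 to 1.32) and 1.28 (1.16 to 1.40). In HT29 the levels of BAK1 and BOK could not be told apart by counting, with 0.979 units of BAK1 per unit of BOK in the control (0.880 to 1.09). With NC, LIM1215 cells had 1.90 (1.73 to 2.08).

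BIK, a BH3-only protein of the endoplasmic reticulum membrane that binds survival proteins, varied most among the abundant members. It was at 18.4 (NC) and 33.3 (si2) in HT29 cells, and 59.7 (NC) and 109 (si2) in LIM1215 cells. Each knockdown library was higher than the control of its line, by 1.81-fold in HT29 (1.57 to 2.1) and 1.82-fold in LIM1215 (1.67 to 1.98), and both LIM1215 libraries were higher than both HT29 libraries. BIK has 1 annotated transcript and no overlapping gene. Only 3.4% of the 14803 genes compared had a higher log2 ratio in HT29, and 2.44% in LIM1215. In bulk RNA, more cells with the transcript and more transcript per cell cannot be told apart.

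BID links death receptors to the mitochondria once caspase 8 has cleaved it. It was at 60.9 (NC) and 77.6 (si2) in HT29 cells, and 86.4 (NC) and 64.0 (si2) in LIM1215 cells. The knockdown library was the higher one in HT29, at 1.27 times the control (1.21 to 1.34), and the lower one in LIM1215, at 0.741 times (0.703 to 0.782). This was the only member for which the counting intervals of the lines lay on opposite sides of 1. Opposite signs of the log2 ratio alone were found in 33.8% of all genes compared. The share of all genes with intervals on opposite sides was not worked out. The difference between the lines was not tested, since each rests on single libraries.

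BIK and BID therefore changed places in LIM1215. There were 1.45 units of BID per unit of BIK in the LIM1215 control (1.34 to 1.57) and 0.590 in the knockdown library (0.554 to 0.628). In HT29 the ratio was 3.31 in the control (2.93 to 3.75) and 2.33 in the knockdown library (2.12 to 2.55). BIK made up 15.4% (NC) and 21.3% (si2) of the summed BH3-only FPKM in HT29, and 30.0% (NC) and 47.2% (si2) in LIM1215.

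BMF, a BH3-only protein released from the cytoskeleton under stress, was low. It was at 0.303 (NC) and 0.528 (si2) in HT29 cells, and 1.17 (NC) and 1.92 (si2) in LIM1215 cells, in the same order as BIK. The ratios were 1.75 (1.08 to 2.85) and 1.63 (1.27 to 2.12), from an estimated 29 and 51 fragments in HT29 and 95 and 174 in LIM1215. Fragments were estimated from the canonical transcript of 4692 bases. With the shortest coding transcript of at least 500 bases in its place, the BMF interval included 1 in both lines, as did that of BCL2 in LIM1215 and that of BAD in HT29.

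BAD, which is silenced by phosphorylation when growth factors are present, was at 33.2 and 38.9 in the HT29 control and knockdown and at 45.2 and 48.7 in the LIM1215 control and knockdown libraries. Its ratio was 1.17 in HT29 (1.04 to 1.32) and 1.08 in LIM1215, where the interval of 0.964 to 1.2 included 1. BCL2L11, which codes for BIM, a potent activator of the pore formers, was nearly level across the 4 libraries, at 6.55, 6.07, 6.57 and 6.89 in the same order. Its ratios were 0.927 (0.831 to 1.03) and 1.05 (0.937 to 1.17), so no difference was detectable by counting in either line.

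Some of these levels may include fragments of genes on the opposite strand. The library kit keeps strand, but whether the counting used it is not given in the sources used here. On the canonical transcripts, the lncRNA ABALON covers 945 of the 2574 exonic bases of BCL2L1 and was at 6.42 to 17.7. GPR137 covers 314 of the 929 exonic bases of BAD and was at 14.7 to 24.6. MIR4435-2HG covers 727 of the 5098 exonic bases of BCL2L11 and was at 34.4 to 53.5, above BCL2L11 itself. Their part in the values of the members was not tested. MCL1, BID and BCL2 share no exonic base with another annotated gene, and BAK1, BOK and BMF share 91 to 461.

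**Figure D2:**
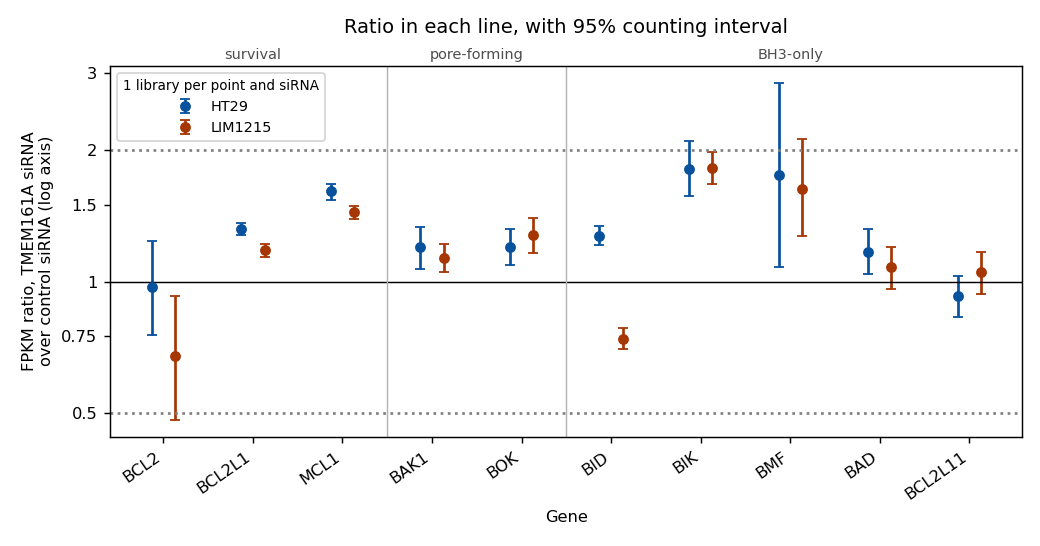
FPKM ratio of knockdown over control library (log axis) for each of the 10 genes, HT29 in blue and LIM1215 in orange-brown, with 95% counting intervals as bars. BIK lies near 1.8 in both lines, MCL1 at 1.61 and 1.44, and BID at 1.27 in HT29 and 0.741 in LIM1215, while no point reaches the dotted lines at 2-fold.

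The members were then placed among all genes, by the log2 of their ratio after 1 was added to each FPKM (the pseudocount). A fold on this scale understates the change of a low gene. Genes with a mean FPKM of at least 1 over the 4 libraries were compared, 14803 in all. By this filter 8 members were compared, 2 of the survival and 6 of the death side, and BCL2 and BMF were not. A gene was called once its log2 ratio reached 1 or −1, which is 2-fold.

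None of the 8 members was called in HT29, where 3.80% of all genes were, and none in LIM1215, where 3.46% were. The nearest was BIK, with log2 ratios of 0.82 and 0.85. At a 1.5-fold threshold MCL1 (0.67) and BIK were higher in the HT29 knockdown library, against 7.87% of all genes. In LIM1215 BIK alone passed it, against 6.63% of all genes, and MCL1 stood at 0.52. With 8 members compared, counts of 0 to 2 do not set the family apart from other genes.

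Small differences leaned upwards. In HT29, 7 of the 8 members had a log2 ratio above 0, as did 53.9% of all genes, with BCL2L11 (−0.09) the exception. In LIM1215 it was 7 of 8, against 53.1% of all genes, with BID (−0.43) the exception. The median over the survival members compared was 0.53 in HT29 and 0.38 in LIM1215, and over the death members 0.24 and 0.14. The median of all genes compared was 0.04 and 0.02. Over all 10 genes regardless of level, the survival medians were 0.40 and 0.24, each the value of BCL2L1, and the death medians 0.24 and 0.17. By these medians survival and death members leaned the same way, and their ranges overlapped in both lines. Of the genes under the filter, BCL2 stood at −0.02 in HT29 and −0.22 in LIM1215, and BMF at 0.23 and 0.42.

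Across the lines, 8 members were tested with limma, where the spread comes from differences between the ratios of the lines and not between cultures. A gene's own spread had 1 residual degree of freedom and was weighed with a prior spread, at 6.06 degrees of freedom. That prior is drawn from all genes by level, so the SE of a gene is mostly not its own. BIK was higher with si2, by 0.84 ± 0.12 on the log2 scale (SE, 4 libraries, higher in both lines), with a limma adjusted p of 0.0281, and 1.95% of all genes passed at 0.05. The BIK call was lost with a pseudocount of 0.1, under either rescaling of the libraries and without the line in the fit, with limma adjusted p from 0.00407 to 1 over all alternatives. MCL1 came next, at 0.60 ± 0.11 and an adjusted p of 0.0525 (0.0154 when only genes with a mean FPKM of at least 5 were tested, 0.0583 to 1 otherwise), and BCL2L1 stood at 0.32 ± 0.11 with 0.178 (limma). The other 5 members had limma adjusted p of 0.31 to 0.971.

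In sums, the 3 survival genes held 197 FPKM (NC) and 275 (si2) in HT29, and 199 (NC) and 255 (si2) in LIM1215. The 7 death genes held 149 and 192 in HT29 and 250 and 290 in LIM1215. The survival sum per unit of the death sum was 1.32 in the HT29 control and 1.43 in the knockdown library, and 0.794 and 0.878 in LIM1215. There were 0.128 units of BIK per unit of BCL2L1 with NC and 0.177 with si2 in HT29, and 0.507 and 0.781 in LIM1215. Per unit of MCL1 there were 0.348 units of BIK (0.308 to 0.392) and 0.392 (0.359 to 0.429) in HT29, where the intervals overlapped, and 0.746 (0.692 to 0.804) and 0.942 (0.893 to 0.993) in LIM1215. For the summed ratio, the step between siRNAs was smaller than the step between lines. These sums are of mRNA and leave out BAX, BBC3 and PMAIP1.

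**Figure D3:**
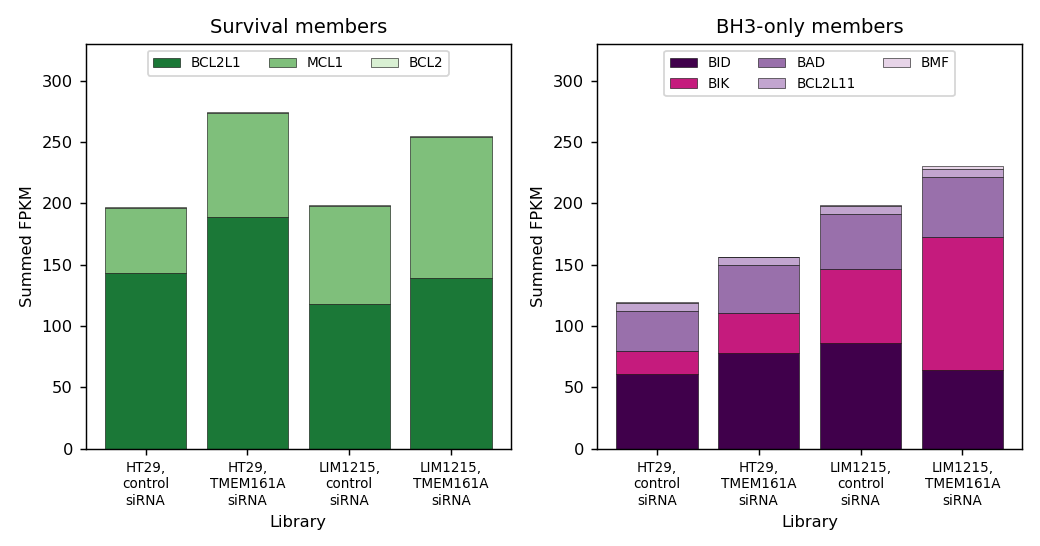
Summed FPKM of the survival members (left) and the BH3-only members (right) in the 4 libraries, 1 bar per library, with the share of each gene in colour. MCL1 goes from 26.8% to 45.2% of the survival sum and BIK from 15.4% to 47.2% of the BH3-only sum from HT29 with NC to LIM1215 with si2.

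The control libraries show how the lines differ before any knockdown. BIK was 3.24 times as high in LIM1215 as in HT29 (2.83 to 3.72) and BAK1 2.28 times (2.06 to 2.51). These were the 2 of 8 members called, both of the death side, where 19.4% of all genes were called, with log2 ratios of 1.65 and 1.14. As 6 of the 8 members compared are death members, 2 calls set neither the family nor that side apart. At a 1.5-fold threshold MCL1 (0.59) joined BIK and BAK1, against 21.8% of all genes. MCL1 was 1.51 times as high in LIM1215 (1.45 to 1.57), while BCL2L1 was 0.822 times as high (0.793 to 0.852). BMF, not compared for its low level, was 3.88 times as high in LIM1215 by FPKM (2.52 to 6.07), an interval that with its shortest coding transcript widened to 0.628 to 35.6 and included 1.

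Of the other death members, BID stood at 1.42 times HT29 (1.35 to 1.5), BAD at 1.36 (1.21 to 1.54) and BOK at 1.17 (1.06 to 1.30). BCL2L11 was level, at 1.0 (0.897 to 1.12). In all, 7 of the 8 members had a log2 ratio above 0, against 53.7% of all genes. The median was 0.47 over the death members compared and 0.15 over the survival members, against 0.05 for all genes.

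This comparison depends on scaling more than those within a line. With every library set to the same summed FPKM, the median of all genes moved from 0.05 to −0.11. BAK1 then came to 0.96, short of the threshold, as with a pseudocount of 5 (0.97), the survival median to −0.026 and the death median to 0.29, and BCL2L11 changed sign, from 0.004 to −0.15. BIK stayed past the threshold under every alternative tried. The ratios between members of 1 library, given above, are free of this.

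**Figure D4:**
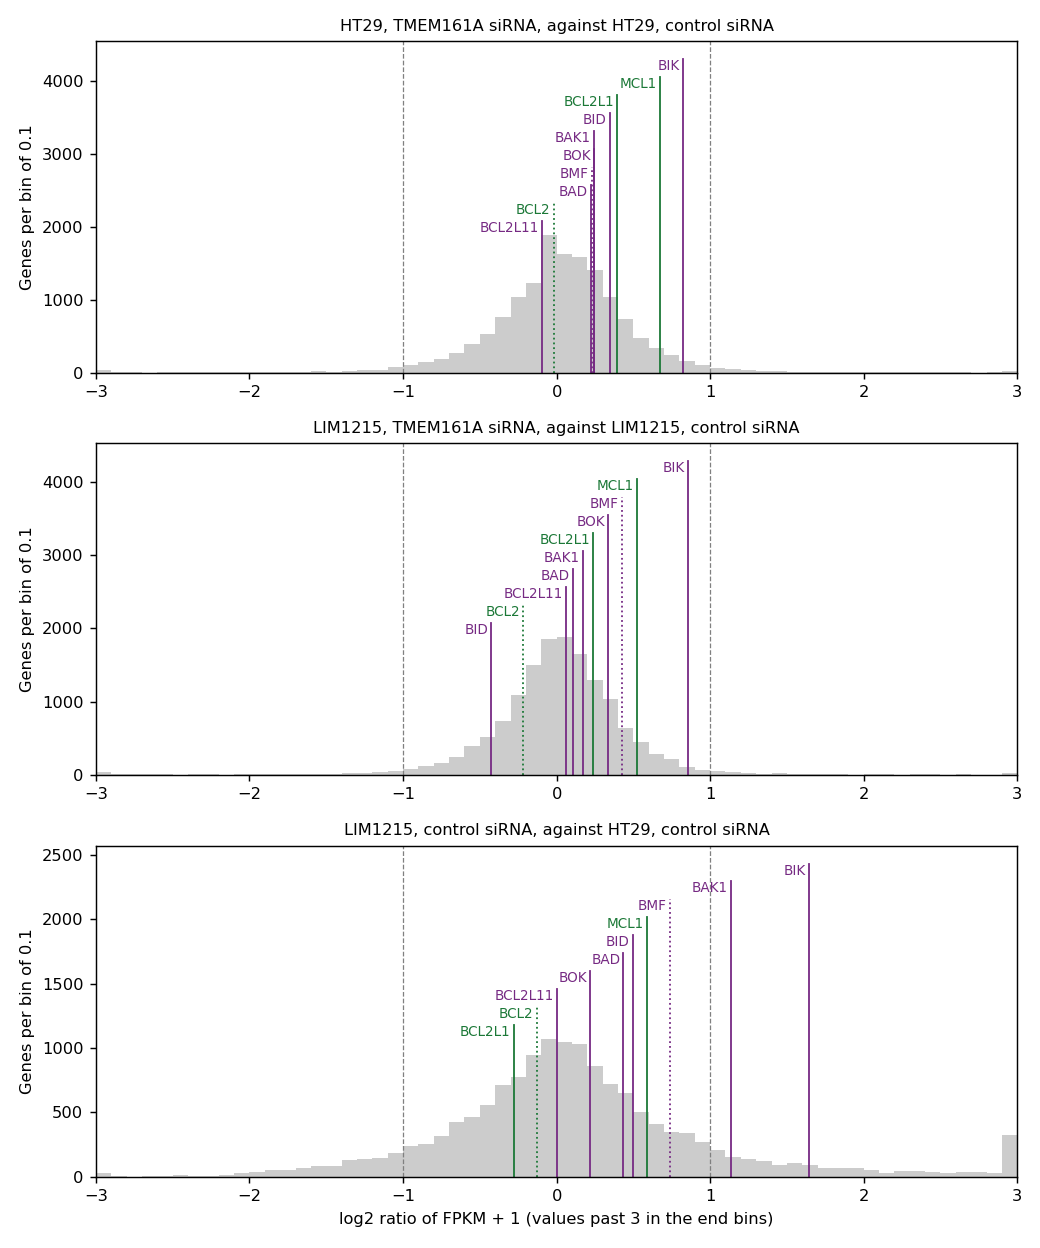
Histograms of the log2 ratio of FPKM + 1 over the 14803 genes compared, in 3 panels: HT29 knockdown against control, LIM1215 knockdown against control, and LIM1215 control against HT29 control. Lines mark the survival members in green and the death members in purple, dotted where the gene was under the filter, and dashed lines the 2-fold threshold, which BIK and BAK1 pass in the third panel alone.

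Family genes outside the 10 gave a background to these values. BAX, the third pore former, was at 58.8 and 117 in the HT29 control and knockdown and at 106 and 175 in LIM1215. BBC3 was at 35.3 and 55.8 and at 27.0 and 38.4, and PMAIP1 at 94.2 and 79.5 and at 34.3 and 28.1. Of 10 further family genes 7 were compared. BCL2L15, which is known from the gut, was at 0.526 in the HT29 control and 2.85 in the HT29 knockdown, and at 37.2 and 49.6 in LIM1215. It was called higher in the HT29 knockdown (log2 ratio 1.34, an estimated 54 and 295 fragments), though not with a pseudocount of 5, and stood at 0.40 in LIM1215. BCL2L14 was at 0.0854 and 0.120 in HT29, from about 3 and 4 fragments, and at 24.7 and 14.1 in LIM1215. Between the controls BCL2L15 (4.65) and BCL2L14 (4.57) were called higher in LIM1215, where 19.4% of all genes were called in either direction. BCL2L14 stood at 289 times HT29, with a counting interval of 101 to 1440. It passed the filter through its LIM1215 libraries alone, where it is high, so its call is not independent of the filter. The mean of BCL2L15 also rests mostly on its LIM1215 libraries, so its call between the controls is not independent of the filter either. The median of the list was −0.34 in LIM1215, the value of BCL2L12, against 0.02 for all genes. In HT29 the median rests on BCL2L14 itself and is not given. Above 0 lay 5 of the 7 in HT29, BCL2L14 among them, and 1 in LIM1215. Of all genes 53.9% and 53.1% did. BCL2L12 and BCL2L13, the most abundant of this list, lay between −0.34 and 0.09 within the lines.

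Downstream of the pore, 18 genes of mitochondrial release, the apoptosome and the caspases were all compared. None was called within a line, and 13 in HT29 and 10 in LIM1215 had a log2 ratio below 0, with medians of −0.07 and −0.02. Over all genes 3.80% and 3.46% were called, and 53.9% and 53.1% lay above 0. CYCS, the gene of cytochrome c, was at 271 and 257 in HT29 and at 460 and 409 in LIM1215. VDAC1, a channel of the outer membrane, was at 266 and 260 and at 355 and 322. Between the controls CASP6, a caspase, was called higher in LIM1215 (1.38), and 15 of the 18 genes had a log2 ratio above 0. Over all genes 19.4% were called between the controls and 53.7% had a log2 ratio above 0.

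Of 7 caspase inhibitors 6 were compared, and none was called in any comparison, with medians of −0.04 in HT29 and −0.09 in LIM1215. Over all genes 3.80% were called in HT29, 3.46% in LIM1215 and 19.4% between the controls. CFLAR, which blocks caspase 8, was at 17.8 and 31.3 in HT29, a log2 ratio of 0.79, and at 28.6 and 31.9 in LIM1215 (0.15). BIRC5, which codes for survivin, was at 65.9 and 60.5 and at 44.7 and 34.3. Upstream of BID, all 7 death receptors and adaptors were compared, and all had a log2 ratio above 0 in HT29 (median 0.28) and 4 in LIM1215 (0.07), where 53.9% and 53.1% of all genes did. FAS was called in LIM1215, at 13.4 and 28.3 (1.03), but not with a pseudocount of 5, and was at 10.6 and 15.1 in HT29 (0.48). TNFRSF10B, a receptor of TRAIL, was at 138 and 151 and at 102 and 126. TNFRSF1A was at 122 and 143 and at 89.5 and 83.

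The 5 ubiquitin enzymes that set the turnover of MCL1 and BIM were all compared and none was called, with medians of −0.04 in HT29 and −0.12 in LIM1215. HUWE1, a ligase of MCL1, was at 71.6 and 80.9 in HT29 and at 67.8 and 69.2 in LIM1215, and MARCHF5 at 31.9 and 28.7 and at 29.9 and 24.7. Of 6 transcription factors known to act on members, DDIT3, also called CHOP, was called lower in both lines, at 130 (NC) and 46.9 (si2) for HT29 (−1.45) and 57.6 and 20.6 for LIM1215 (−1.44). Across the lines its log2 ratio was −1.44 ± 0.12 (SE, limma adjusted p 0.00365), and no other of the 49 list genes passed. Between the controls DDIT3 was called lower in LIM1215 (−1.16). DDIT3 shares 219 of its 903 exonic bases with MARS1 on the opposite strand, which was at 238 to 356, and its part in these values was not tested. It also shares 105 with a protein-coding gene on the same strand that has no value here. FOXO1 was called higher in the HT29 knockdown, at 1.65 and 4.73 (1.11), though not with a pseudocount of 5, and was at 2.45 and 3.11 in LIM1215 (0.26). An lncRNA on the same strand, with no value here, covers 1352 of the 5779 exonic bases of FOXO1. Its part was not tested. The median of the 6 was 0.36 in HT29 and 0.20 in LIM1215. Over all 6 lists, 49 of 53 genes were compared. In HT29, 2 were called higher and 1 lower, against 3.80% of all genes called. In LIM1215, 1 was called higher and 1 lower, against 3.46%, and between the controls 4 higher and 1 lower, against 19.4%. The 4 include BCL2L14, which passed the filter through LIM1215 alone, and BCL2L15, whose mean rests mostly on LIM1215.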

How the data were processed

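Total RNA was made into stranded mRNA libraries, per the labels' protocols. The authors deposited 1 table of FPKM per library. HISAT2 2.1.0, SAMtools 1.20, Cufflinks 2.2.1, Cuffdiff and GRCh38 are named in the submitters' processing notes, without their settings. The annotation, filters and strand setting are not given in the sources used here. Groups followed the sample titles.

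Symbols, lengths and sequences came from GENCODE release 44 (GRCh38), which matched 56550 of 60658 identifiers. Depth was estimated from genes with 1 transcript of at least 500 bases. The depth and length offset chosen brought the most low values within 0.03 of a whole fragment, 76.7% to 78.1% of them. Log2 ratios used a pseudocount of 1 and a mean FPKM of at least 1. The steps were tested on simulated data, with Python 3.11.15, numpy 2.4.6 and scipy 1.17.1. The test across the lines used limma 3.58.1 in R 4.3.3 on log2(FPKM + 1), with a mean-dependent prior spread and Benjamini-Hochberg adjustment; the pairs are the cell lines of the labels. All 10 members were named, with TMEM161A, and of 6 lists the 2 genes with the highest mean FPKM and those past 2-fold in any comparison, of which 2 are not reported here. Members, lists and thresholds were chosen with earlier results of these data known. Alternatives were pseudocounts of 0.1 and 5, 2 other filters, 3 other scalings and a 1.5-fold threshold.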

Additional observations from a re-analysis of the deposited data

Results flagged for a closer look

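Of the 57 members and list genes compared, 18 had log2 ratios of knockdown to control with opposite signs in the lines, as did 33.8% of all genes. In 6 of the 18 both counting intervals lay apart from 1: BID, TNFRSF1A and, named here after their values were seen, BCL2L2 (0.39 in HT29, −0.37 in LIM1215), XIAP (−0.20, 0.47), BIRC3 (0.13, −0.53) and OPA1 (−0.13, 0.05). How many of all genes had both intervals apart from 1 was not worked out. With the shortest coding transcript, the HT29 intervals of XIAP (0.666 to 1.1) and BIRC3 (0.928 to 1.3) included 1. So did both intervals of OPA1, while those of BID and BCL2L2 stayed apart from 1 in both lines. Each difference is given as LIM1215 minus HT29 and was not tested, with 1 library per siRNA. BID stood at 0.34 (HT29) and −0.43 (LIM1215) and so differed by −0.77, and both counting intervals lay apart from 1. TNFRSF1A, a receptor of TNF, had 0.23 and −0.11, a difference of −0.34, also with both intervals apart from 1, though with the shortest transcript that of LIM1215 included it. BCL2L14 differed by −0.81 (0.04 and −0.76), with its HT29 value resting on about 3 and 4 fragments. BCL2L12 differed by −0.37 (0.04 and −0.34), and its HT29 value was −0.04 with every library set to the same summed FPKM. BCL2L11 differed by 0.16 (−0.09 and 0.06) and BCL2L13 by −0.14 (0.09 and −0.05), each with at least 1 interval that included 1.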

How the results depend on the processing

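The paired test across the lines was chosen after seeing the data. With the line as replicate block it called 288 genes and 1 member, BIK; with no replicate block it called 0 genes and 0 members, with 370 genes at an unadjusted limma p under 0.05. It called 50 genes and 0 members with a pseudocount of 0.1, 76 and 0 with equal summed FPKM, 39 and 0 by upper quartile, and 802 and 2 at a mean FPKM of at least 5, with MCL1 added. No library could be left out, since no residual degree of freedom would remain, and the fit without a filter was void, with most spreads at 0. In HT29 the survival median of 0.53 moved to 0.40 without a filter, 0.46 with equal summed FPKM and 0.47 by upper quartile. In LIM1215 the survival median of 0.38 moved to 0.24 without a filter, which adds BCL2. Between the controls the survival median of 0.15 moved to −0.13 without a filter, −0.026 with equal sums and −0.023 by upper quartile, and the death median of 0.47 to 0.29 with either scaling. The 2 members past 2-fold between the controls became 1 with a pseudocount of 5, with equal sums and by upper quartile, BAK1 being the one lost. At 1.5-fold, 2 members passed in HT29 and 1 in LIM1215, where none passed 2-fold. With a pseudocount of 5 the ratio of BCL2L1 to MCL1 came to 2.56 in the HT29 control and 2.16 in the HT29 knockdown library. The cause of these shifts was not tested beyond the change of genes or scale itself. With a pseudocount of 5, the list genes past 2-fold became 1 of 3 in HT29 and 1 of 2 in LIM1215. No called value changed sign under any of the alternatives. Depth limits BMF and BCL2 most, at 29 to 174 estimated fragments.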
